A study of Drosophila melanogaster with 90 samples.

Results

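The genes described are 10 antimicrobial peptide genes of Drosophila melanogaster: the attacin genes AttA, AttB, AttC and AttD, the cecropin genes CecA1, CecA2 and CecC, the diptericin genes Dpt and DptB, and the drosocin gene Dro. They were chosen by row name, as peptide genes that depend mainly on the Imd pathway, and are 10 of the 14514 named genes in the count table. The samples were whole females of 5 inbred lines, Beijing, Ithaca, Netherlands, Tasmania and Zimbabwe, each standing for 1 wild population. Virgin females were mated once to virgin males of each of the same lines (25 crosses); virgins of the same age, 3 to 5 days, served as controls. Freezing followed 5 to 6 h after the start of mating, and the RNA of 5 to 10 females was pooled for each library. Each of the 30 groups was planned with 3 libraries from flies of separate bottles, and 89 libraries were analysed, 15 from virgin and 74 from mated females. In the name of a cross the female line stands first. The labels name no transgene, infection or other treatment in any group.

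Attacins, cecropins, diptericins and drosocin are small secreted peptides that act mainly on Gram-negative bacteria. In flies the fat body makes them and releases them into the hemolymph, and gut, trachea and reproductive tract epithelia make some of them locally. The Imd pathway is switched on by bacterial peptidoglycan, which is sensed by receptors such as PGRP-LC and PGRP-LE, and it ends in the NF-kB factor Relish, encoded by Rel, which turns the peptide genes on. Amidases that cut peptidoglycan (PGRP-SC1a, PGRP-SC1b, PGRP-LB) and the inhibitor pirk keep the pathway low. Mating, through seminal fluid, is known to raise several of these peptides in females.

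The genes lie in a few clusters. In the BDGP6 reference annotation, used here for names, neighbours and exon lengths only, Dro, AttA and AttB follow each other on 2R, and Dpt (DptA in the reference) lies beside DptB on 2R. AttC is also on 2R and AttD is on 3R. CecA1 and CecA2 lie on 3R with only the pseudogene Cec-Psi1 between them, and CecC lies next to CecB on 3R. AttA and AttB are near-identical copies, and CecA1, CecA2 and CecC are close paralogs, so how reads were split within each of these sets is uncertain. The strand setting of the counting is not given in the sources used here.

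Total counts per library ranged from 4407704 to 38799730. Counts were compared with edgeR's quasi-likelihood test, and a gene is called when its Benjamini-Hochberg adjusted p over all 12045 tested genes is below 0.05; all 10 genes passed the filter on low counts. Levels are given as CPM, counts scaled to a common library size after TMM adjustment. In 5 libraries more than 10% of the RNA appeared to come from another line, judged by genes that are silent in the library's own line: 67.9% Ithaca RNA in Netherlands x Ithaca replicate 2, 38.0% Beijing RNA in Netherlands x Beijing replicate 2, 24.2% and 15.2% Zimbabwe RNA in Ithaca x Zimbabwe replicates 3 and 1, and 16.4% Zimbabwe RNA in Beijing x Netherlands replicate 2. Summed testis transcripts were above 10 CPM in 7 libraries. Among them were Ithaca x Zimbabwe replicate 1 (1644 CPM) and Netherlands x Beijing replicate 2 (1552 CPM), also listed above for RNA of another line. In whole females the summed fat body markers ranged from 19455 to 59128 CPM, the hemocyte markers from 327 to 1083 CPM and the midgut markers from 3435 to 19794 CPM, and no marker on these lists was at 0 in every library. The fat body list was Fbp1, Fbp2, Lsp2, apolpp, to, bmm, desat1 and the yolk protein genes Yp1, Yp2 and Yp3. The part of each gene in the sum is not given here.

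Over all 89 libraries the 10 genes spanned large ranges. Per kilobase of exon the order of the medians was AttC (46.0 CPM per kb), Dpt (31.0), DptB (27.4), Dro (24.0), AttA (12.6), AttB (11.2), CecA1 (2.30), CecC (2.30), CecA2 (1.27) and AttD (0.506). AttC had a median level of 41.4 CPM, with a lowest library of 3.70 and a highest of 1606. Dro had a median of 18.1 (1.67 to 1291), Dpt of 15.4 (0.516 to 1577) and DptB of 12.3 CPM (1.89 to 440.0). AttA and AttB had medians of 9.95 (0.852 to 263) and 9.84 CPM (0.392 to 732). The cecropins and AttD, the lowest of the set per kilobase, had medians of 0.886 for CecC, 0.779 for CecA1, 0.451 for CecA2 and 0.376 CPM for AttD. Their highest libraries reached 43.2, 145, 75.1 and 56.9 CPM, and AttD was at 0 in 18 libraries, CecA1 in 20, CecA2 in 4 and CecC in 1. In RNA from whole animals, fewer cells of a type and less RNA per cell cannot be told apart.

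**Figure D1:**
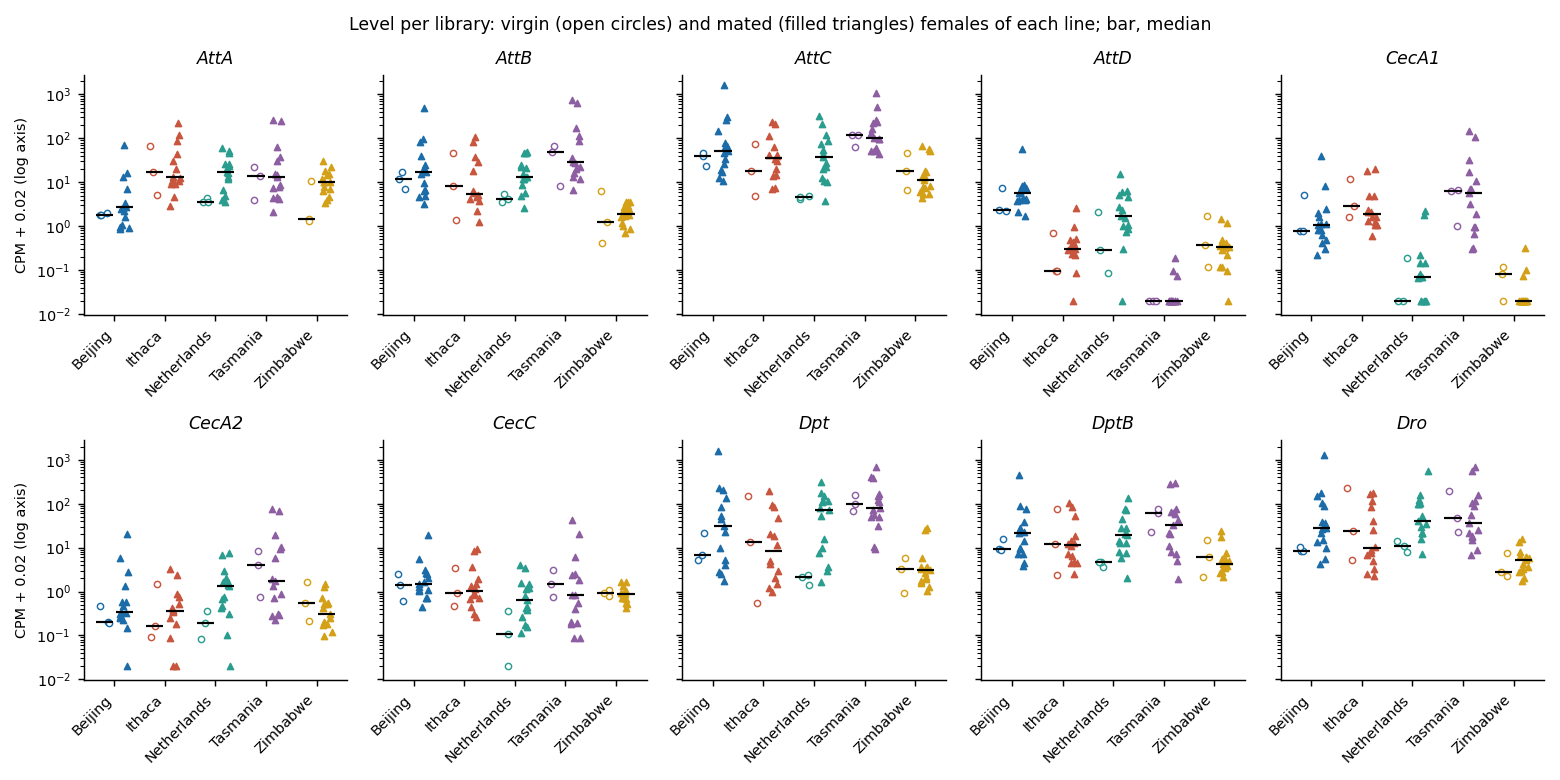
Level of each gene in every library as CPM plus 0.02 on a log axis, by female line, with virgins as open circles, mated females as filled triangles and medians as bars. Tasmania stands high for most genes, AttD is at or near 0 in Tasmania, and CecA1 is at or near 0 in Zimbabwe and in most Netherlands libraries.

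Virgin females of the 5 lines already differed in these peptides. Tasmania virgins were high: Dpt was at 101, 162 and 66.7 CPM in replicates 1 to 3, AttC at 121, 118 and 62.2 CPM. In Netherlands virgins Dpt was at 1.39, 2.34 and 2.09 CPM and AttC at 4.87, 4.16 and 4.71 CPM. The Tasmania and Netherlands values did not overlap for either gene. In the pairwise test AttC was 21.9-fold and Dpt 55.7-fold lower in Netherlands than in Tasmania virgins (log2 change -4.45 ± 1.28, SE, adjusted p = 0.0127, and -5.80 ± 1.88, adjusted p = 0.0309, edgeR). Ithaca virgins were spread widely, with Dro at 5.23, 23.5 and 229 CPM and Dpt at 0.516, 13.5 and 150.0 CPM. Zimbabwe virgins were low for drosocin, with Dro at 7.51, 2.23 and 2.74 CPM, 20.1-fold below Tasmania (189.6, 47.0 and 22.5 CPM; adjusted p = 0.0401, edgeR).

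Across the 5 virgin groups, 6 of the 10 genes differed by line: AttD (adjusted p = 0.000141), CecA1 (0.00629), Dro (0.0101), Dpt (0.0153), AttA (0.0235) and CecA2 (0.0240, edgeR). AttC (0.0506), AttB (0.0512), DptB (0.0717) and CecC (0.319) did not pass. Of all tested genes 27.5% were called in this comparison. Single libraries mattered: without Ithaca virgin replicate 3, AttA was no longer called (adjusted p = 0.273), and without Tasmania virgin replicate 2 CecA2 was not (0.290). Over their 24 alternatives in all, the adjusted p of AttA ranged from 0.00278 to 0.398 and that of CecA2 from 0.00796 to 0.638. Taking pairs of lines, 15 of the 100 tests of a gene and a pair were called in virgins, against 9.46% over all genes.

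Among mated females, with 14 or 15 libraries a line, 9 of the 10 genes differed by female line, while 70.1% of all tested genes did. CecC missed the threshold with an adjusted p of 0.0603 (edgeR). Of the 100 tests of a gene and a pair of lines 55 were called, against 35.7% over all genes. AttD differed in 9 of its 10 pairs, CecA1 in 7, AttB, AttC, Dpt and Dro in 6, DptB in 5, AttA and CecA2 in 4 and CecC in 2. Between lines that stand next to each other in a gene's order of mean levels, 10 of 40 differences were called.

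The antibacterial attacins did not share one order of lines. AttA had mean levels of 48.7 ± 86.8 CPM (SD, n = 15) in Tasmania, 42.6 ± 62.1 (n = 14) in Ithaca, 22.2 ± 17.9 (n = 15) in Netherlands, 11.7 ± 7.50 (n = 15) in Zimbabwe and 8.65 ± 18.04 CPM (n = 15) in Beijing, and no neighbours in that order differed. AttB ran from 132 ± 233 CPM in Tasmania over 56.4 ± 123 in Beijing, 22.4 ± 33.3 in Ithaca and 20.004 ± 15.8 in Netherlands to 2.11 ± 0.978 CPM in Zimbabwe. Its last step was called: mated Zimbabwe females had 0.689 to 3.54 CPM (median 1.88) and Netherlands females 2.63 to 50.3 CPM (median 13.2), an 8.79-fold difference (log2 change 3.14 ± 0.59, adjusted p = 1.94e-05, edgeR). These ranges overlapped only at their ends. The Tasmania mean of AttB holds the crosses with Tasmania and Zimbabwe males, at means of 263 and 330 CPM, against 21.8 CPM in the 9 other libraries. The Beijing mean of AttB includes a Beijing x Ithaca library at 490 CPM. Between Beijing and Ithaca, AttA was lower in Beijing (log2 change -2.57 ± 0.52, adjusted p = 4.43e-05), while the Beijing minus Ithaca change of AttB was 0.99 ± 0.52 (adjusted p = 0.124).

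AttC, a more distant attacin, was highest in mated Tasmania females (44.96 to 1071 CPM, median 101) and lowest in mated Zimbabwe females (4.48 to 68.4 CPM, median 11.5). The groups overlapped, and the fitted difference was 8.54-fold (log2 change 3.09 ± 0.53, adjusted p = 1.86e-06, edgeR). AttD, an attacin that lacks a signal peptide, had the opposite place in Tasmania. It had 0 counts in the 3 Tasmania virgins, which allows up to 0.0557 CPM over the group for counting error alone, and 3 counts in all 15 mated Tasmania libraries. In mated Beijing females it ranged from 1.71 to 56.9 CPM (median 5.57), in Netherlands from 0 to 15.4 (median 1.70), in Ithaca from 0 to 2.63 (median 0.285) and in Zimbabwe from 0 to 1.45 CPM (median 0.309). No Tasmania library, with a highest value of 0.165 CPM, reached the lowest mated Beijing library, and the difference was called (adjusted p = 1.57e-14, edgeR). Beijing and Netherlands (adjusted p = 0.00275), Netherlands and Ithaca (1.39e-05) and Zimbabwe and Tasmania (0.000826) also differed, whereas the adjusted p of Ithaca and Zimbabwe was 0.862.

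Among the cecropins, CecA1 was nearly silent in Zimbabwe females, with 2 counts in 3 virgin and 5 counts in 15 mated libraries. In Netherlands females it had 2 counts in the virgins and 67 in the mated libraries. Of the mated Netherlands libraries, Netherlands x Ithaca replicate 2 (2.15 CPM) and Netherlands x Beijing replicate 2 (1.74 CPM) stood above the rest, which reached at most 0.206 CPM; these are the 2 Netherlands libraries with RNA of another line. CecA1 was present in every library of the other lines, with mated medians of 5.76 CPM in Tasmania (0.276 to 145), 1.84 in Ithaca (0.591 to 20.5) and 1.05 CPM in Beijing (0.206 to 39.5). Beijing and Netherlands, the neighbours across this step, differed 13.6-fold (log2 change 3.77 ± 0.86, adjusted p = 0.000301, edgeR).

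CecA2 did not follow CecA1. It was present in Zimbabwe females (mated 0.0780 to 1.49 CPM, median 0.294) and in Netherlands females (0 to 7.62, median 1.31), and was highest in Tasmania females (0.199 to 75.1, median 1.75 CPM). Mated Tasmania females had 3.89-fold more CecA2 than Beijing females (adjusted p = 0.0130, edgeR), and between Beijing, Netherlands, Ithaca and Zimbabwe no neighbours differed. The mean in Tasmania rests on the crosses with Tasmania and Zimbabwe males (means of 26.5 and 34.6 CPM). The 9 other mated Tasmania libraries had a mean of 1.39 CPM, below the means of Beijing (2.20) and Netherlands (1.88). CecC had mated medians between 0.633 CPM in Netherlands and 1.46 CPM in Beijing, and none of its neighbours differed.

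The diptericins and drosocin had much of their order of lines in common. By mean level in mated females Beijing and Tasmania stood on top, followed by Netherlands, Ithaca and Zimbabwe for Dpt, DptB and Dro. The Beijing means include Beijing x Ithaca replicate 1, with Dpt at 1577 and Dro at 1291 CPM. By median Beijing was below Netherlands for Dpt (31.4 against 73.1 CPM) and Dro (27.7 against 39.8 CPM). For DptB it was above (21.7 against 19.2 CPM). No step between neighbours among Beijing, Tasmania and Netherlands was called for these genes. Dpt was at 1.03 to 28.4 CPM in Zimbabwe (median 3.05), against 9.38 to 671 CPM (median 81.5) in Tasmania. The 2 ranges overlapped in part, and the fitted difference was 28.5-fold (log2 change 4.83 ± 0.79, adjusted p = 7.68e-07, edgeR). Dro was at 1.67 to 16.0 CPM (median 5.17) in Zimbabwe and 6.67 to 679 CPM (median 37.0) in Tasmania, a 13.0-fold difference (3.70 ± 0.61, adjusted p = 9.32e-07). DptB was at 2.17 to 23.9 CPM (median 4.12) in Zimbabwe and 1.89 to 297 CPM (median 32.1) in Tasmania, a 7.62-fold difference (2.93 ± 0.55, adjusted p = 1.27e-05). Beijing had a Dpt median of 31.4 CPM, Netherlands of 73.1 and Ithaca of 8.22 CPM, and in the order by mean the step from Netherlands to Ithaca was called (adjusted p = 0.0277).

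The share of one gene copy within a library was compared as well, as a percentage of the counts of its set. AttB made up 75.0% to 90.3% of the AttA and AttB counts in the 18 Beijing libraries (median 86.1%) and 67.4% to 79.3% in the 18 Tasmania libraries (median 74.0%). The share was 38.1% to 60.6% in 18 Netherlands libraries (median 48.5%), 21.1% to 41.0% in 17 Ithaca libraries (median 31.6%) and 9.80% to 46.7% in 18 Zimbabwe libraries (median 16.6%). Beijing and Tasmania did not overlap with the other lines. In Zimbabwe the 3 virgins had shares of 36.9%, 46.7% and 23.5%, while the 15 mated libraries had 9.80% to 34.3% with a median of 15.9%; these overlap, and the difference was not tested. In the other lines the virgin and mated medians were within a few percentage points, at 87.5% and 86.0% in Beijing, 32.9% and 31.5% in Ithaca, 49.1% and 48.2% in Netherlands and 75.1% and 73.8% in Tasmania.

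CecA1 took a median of 63.6% of the counts of the 3 cecropin genes in Ithaca (34.7% to 89.5%), 53.6% in Tasmania (27.5% to 84.8%) and 33.3% in Beijing (18.8% to 63.8%). In Netherlands its median share was 2.44%, with a highest value of 55.3% in Netherlands x Beijing replicate 2, the library with 38.0% Beijing RNA, and in Zimbabwe it was 0% (0% to 17.6%). CecA2 held a median of 60.0% of these counts in Netherlands (9.21% to 81.9%) and of 7.76% in Ithaca. DptB had a median share of the 2 diptericins of 62.2% in Zimbabwe (40.4% to 75.9%) and of 26.8% in Tasmania (13.7% to 50.1%), with 42.1%, 49.0% and 44.8% in Beijing, Ithaca and Netherlands. The virgin and mated medians of this share were 57.0% and 35.8% in Beijing and 69.6% and 38.9% in Netherlands. They were 31.9% and 22.7% in Tasmania, 71.0% and 59.3% in Zimbabwe and 47.7% and 54.3% in Ithaca. The share thus also differed between virgin and mated libraries of a line, and this was not tested. Each of the 4 shares differed between lines in a permutation test over libraries with at least 10 counts (100000 permutations, adjusted p = 1e-05 over 4 shares, the smallest value they can give). Sequence differences between a line and the reference can move reads between near-identical copies, and their part in these shares was not tested.

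**Figure D2:**
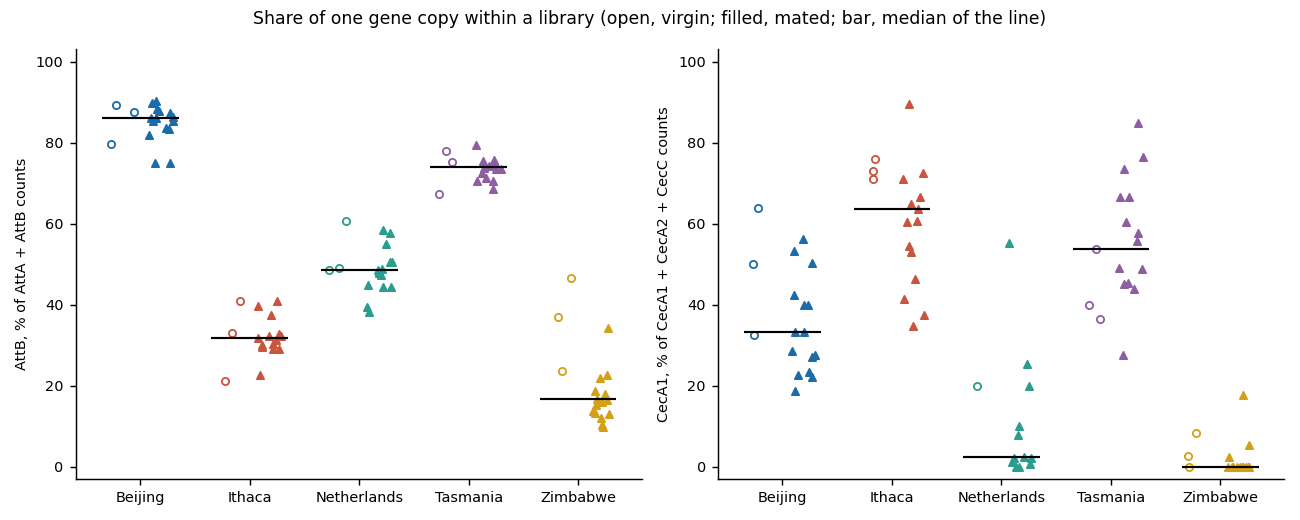
Share of AttB in the counts of AttA and AttB (left) and of CecA1 in the counts of 3 cecropin genes (right), in percent per library with at least 10 counts, by female line; open symbols are virgins, filled symbols mated females, and bars the median of a line. AttB holds a median of 86.1% in Beijing and 16.6% in Zimbabwe, and CecA1 is near 0% in Netherlands and Zimbabwe.

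Mating was compared as the mean of a line's crosses minus its virgins. Averaged over the 5 lines, none of the 10 genes was called by edgeR, where 5.63% of all tested genes were. At an unadjusted p below 0.05 there were 3, against 1935 of the 12045 tested genes. These were AttA with a log2 change of 1.14 ± 0.42 (2.21-fold, adjusted p = 0.101), AttC with 1.15 ± 0.42 (2.21-fold, adjusted p = 0.0999) and Dpt with 1.40 ± 0.60 (2.64-fold, adjusted p = 0.202). DESeq2's own test called these 3 genes, with adjusted p-values of 0.01996 for AttA, 0.0261 for AttC and 0.0464 for Dpt; it called 7.44% of the genes it tested. Over all alternatives the adjusted p ranged from 0.01996 to 0.373 for AttA, from 0.0261 to 0.323 for AttC and from 0.0464 to 0.696 for Dpt. The other changes were 0.79 ± 0.45 for Dro, 0.75 ± 0.54 for CecA2, 0.65 ± 0.43 for AttB, 0.63 ± 0.45 for CecC and 0.50 ± 0.41 for DptB. AttD and CecA1 are given no change, since a group in the contrast held 0 counts. The median over the 8 genes was 0.77 and over all tested genes 0.0063. Leaving out Ithaca virgin replicate 3, in which all 10 genes stood above the group mean, brought AttA (1.43, adjusted p = 0.0408) and AttC (1.44, 0.0408) below the threshold, and leaving out Zimbabwe virgin replicate 1 did so for AttA (1.498, 0.0448).

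Within single lines the mating change was as follows. In Netherlands females the virgin libraries of AttC and Dpt were close together, and nearly every mated library was higher for these genes. AttC was at 4.87, 4.16 and 4.71 CPM in virgins and at 3.70 to 330.0 CPM (median 37.7) in mated females, 14 of 15 of them above the highest virgin. Dpt went from 1.39, 2.34 and 2.09 CPM to 1.64 to 309 CPM (median 73.1), with 14 of 15 above the highest virgin. The fitted changes were 3.58 ± 1.14 on the log2 scale for AttC (12.0-fold, adjusted p = 0.382) and 5.03 ± 1.72 for Dpt (32.7-fold, adjusted p = 0.478, edgeR). DptB and Dro were also above the highest virgin in 14 of 15 mated libraries, AttA and AttB in 13, CecA2 in 12, CecC in 11, AttD in 7 and CecA1 in 3. Such counts were not made over all tested genes, so they do not show a rise beyond that of other genes. Netherlands x Zimbabwe replicate 2 was the lowest mated library for AttC, Dpt, DptB and Dro. All 10 fitted changes were positive with a median of 2.53, against 0.04 over all tested genes. At an unadjusted p below 0.05 there were 6, against 726 of the 12045 tested genes. The change of CecA1 was 1.28 ± 2.91, with 2 counts in the virgins, and ran from -1.03 to 4.20 over the alternatives. The genes deviated together between libraries, so the 10 changes are not independent. None was called by edgeR, where 0.125% of all genes were; DESeq2's own test called AttC (3.58, adjusted p = 0.00396) and Dpt (5.04, adjusted p = 0.00141) and 0.489% of the genes it tested. Without the libraries with RNA of another line the changes were 3.57 for AttC and 4.97 for Dpt. Summed fat body markers were 19999 to 47175 CPM (median 23126) in the Netherlands virgins and 20743 to 46830 CPM (median 31545) in the mated libraries. Midgut markers were 4402 to 12197 (median 5575) and 5997 to 19794 CPM (median 7892), hemocyte markers 431 to 560 (median 452) and 327 to 600 CPM (median 518), and testis markers 6.04 to 11.8 (median 6.98) and 4.09 to 1552 CPM (median 5.55). Their part in the mating change was not tested.

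In Beijing females 9 of 10 changes were positive, with a median of 1.42 against -0.0038 over all genes. Dro was at 8.37, 8.50 and 10.4 CPM in virgins and at 4.24 to 1291 CPM (median 27.7) in mated females. Of these mated libraries 12 of 15 were above the highest virgin and 2 below the lowest, a count not made over all tested genes. Its change of 2.97 ± 1.16 (7.85-fold) had an adjusted p of 1, as had that of Dpt, 2.95 ± 1.42. No member was called, DESeq2 called none, and 0.0249% of all genes were called. At an unadjusted p below 0.05 there were 2 members (Dro and Dpt), against 276 of the 12045 tested genes. One library, Beijing x Ithaca replicate 1, was far above the rest, and without it the changes were 2.37 for Dro and 2.24 for Dpt.

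In the other 3 lines the changes were of both signs. Ithaca females had 4 of 10 positive changes and a median of -0.14, with -1.66 ± 0.84 for Dro and -1.72 ± 1.06 for Dpt (adjusted p = 0.578 and 0.684). Their virgins had spanned 5.23 to 229 CPM for Dro, and their 14 mated libraries spanned 2.29 to 176 CPM (median 9.67). Tasmania females had 5 of 9 positive changes (median 0.29) and Zimbabwe females 3 of 9 (median -0.41). In Zimbabwe females AttA went from 1.27, 1.42 and 10.6 CPM in virgins to 3.33 to 30.4 CPM (median 9.95) in mated females (1.19 ± 0.94, adjusted p = 1), and AttB from 0.392, 1.25 and 6.19 to 0.689 to 3.54 CPM (median 1.88; -0.45 ± 1.06, adjusted p = 1). No member was called in these lines by edgeR or DESeq2, where 0.174%, 0.822% and 0.083% of all genes were called in Ithaca, Tasmania and Zimbabwe. None had an unadjusted p below 0.05, against 1043, 1048 and 679 of the 12045 tested genes. In the test of the difference between lines in the mating change, none was called (0.0664% of all genes were, and DESeq2 called no member). Dro (unadjusted p = 0.00741, adjusted p = 0.847) and Dpt (0.00831 and 0.865) had unadjusted values below 0.05, as had 414 of the 12045 tested genes. The 5 lines are thus not shown to differ in the mating change of any of the 10 genes.

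**Figure D3:**
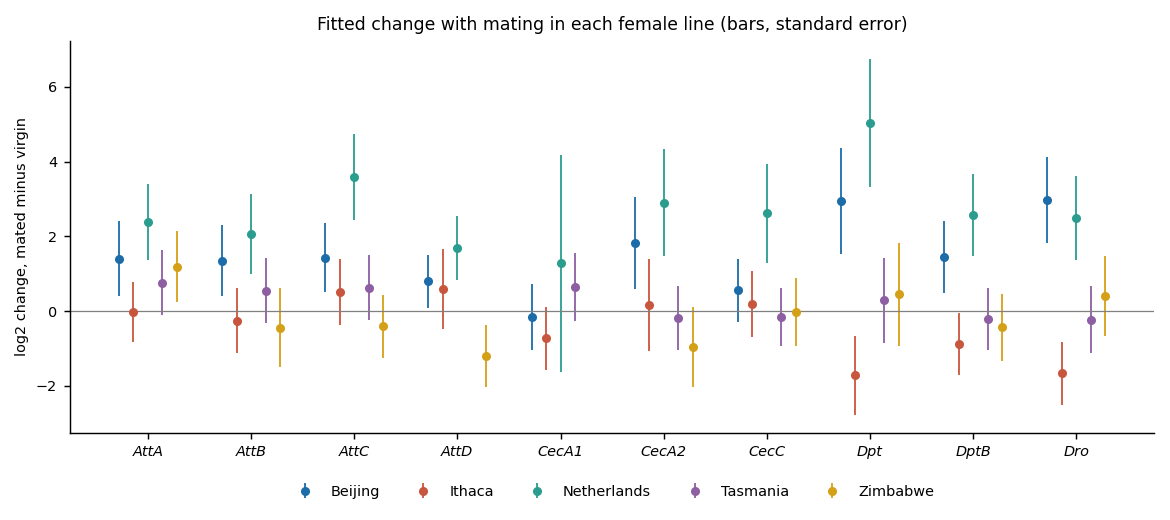
Fitted log2 change, mated minus virgin females, of each gene in each female line, with standard errors as bars; changes with a group of 0 counts are left out. The 10 Netherlands points lie above 0, with the bar of CecA1 reaching below it. The Ithaca points lie on both sides of 0, and no change was called.

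The other genes of the pathway were examined in the same mating contrast. Averaged over lines, 501 of the 12045 tested genes were called higher in it and 177 lower. Averaged over lines none of the 12 tested genes of the Imd signalling core was called, Rel included (-0.02 ± 0.07). Of 5 receptors and recognition proteins 1 fell, PGRP-LF, a receptor that blocks signalling (-0.41 ± 0.12, adjusted p = 0.0274), and PGRP-LC had a change of -0.06 ± 0.08. Of 17 negative regulators 3 fell and none rose: pirk, an inhibitor of the receptor complex (-0.90 ± 0.11, adjusted p = 1.43e-08), PGRP-SC1b (-1.39 ± 0.18, adjusted p = 5.80e-08) and PGRP-SC1a (-1.05 ± 0.23, adjusted p = 0.00135, edgeR). In Netherlands females alone the same 3 were called, at -1.38 ± 0.24, -2.33 ± 0.37 and -2.23 ± 0.50. Of all tested genes 11 were called higher and 4 lower there. PGRP-SC1a and PGRP-SC1b are neighbouring copies of one gene type whose reads may be shared, and the medians of the 3 lists were -0.01, -0.04 and -0.07.

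Of 11 tested immune-induced, JAK-STAT and stress genes 3 rose after mating: Listericin, an antibacterial peptide gene (1.38 ± 0.17, adjusted p = 4.34e-08), and the Turandot stress genes TotM (1.40 ± 0.42, 0.0313) and TotX (1.01 ± 0.31, 0.0358). The median of this list was 0.79. None of 13 tested peptide genes linked to Toll was called (median 0.42); Mtk, which encodes metchnikowin and takes input from Imd and Toll, had a change of 0.92 ± 0.42 (adjusted p = 0.248) and Drs, which encodes drosomycin, of -0.09 ± 0.18. Of 19 Toll pathway genes PGRP-SA, a recognition protein (0.58 ± 0.13, adjusted p = 0.00312), and the protease gene spirit (0.50 ± 0.16, 0.0468) rose and the protease gene modSP (-0.23 ± 0.06, 0.0146) fell, with a list median of -0.02. Among cell type markers, 1 of 9 fat body genes rose (to, 0.49 ± 0.13) and 1 fell (desat1, -0.18 ± 0.06), 1 of 10 hemocyte genes fell (nimC1, -0.31 ± 0.08), and none of 8 midgut and 24 testis genes was called. Their medians were 0.17, -0.07, 0.09 and 1.35. Outside the 7 libraries above 10 CPM the summed testis markers were at most 9.59 CPM.

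The line of the male was compared within each female line. In Tasmania females the male lines differed for 4 of the 10 genes, against 0.208% of all tested genes: CecC (adjusted p = 0.00195), CecA1 (0.00328), CecA2 (0.00339) and AttA (0.0302, edgeR). The high libraries were those of females mated to Tasmania and to Zimbabwe males. CecA1 was at 107, 17.1 and 5.76 CPM in Tasmania x Tasmania and at 145, 31.9 and 10.8 CPM in Tasmania x Zimbabwe, replicates 1 to 3. In the 9 libraries of the other crosses it was at 0.276 to 7.11 CPM (median 0.944). All libraries with Zimbabwe males were above those 9, and 2 of 3 with Tasmania males were. AttA was at 263, 37.2 and 7.48 CPM with Tasmania males, at 254, 62.4 and 30.9 CPM with Zimbabwe males and at 2.14 to 15.3 CPM (median 7.78) in the others. CecA2 was at 68.6, 10.1 and 0.860 CPM, at 75.1, 19.3 and 9.37 CPM, and at 0.199 to 5.92 CPM (median 0.675). CecC was at 43.2, 2.45 and 0.172 CPM, at 20.02, 6.11 and 1.80 CPM, and at 0.0654 to 2.30 CPM (median 0.387).

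Replicate 1 was the highest of its group in both crosses for these genes, and replicate 3 the lowest. Tasmania virgins, for comparison, had AttA at 22.6, 13.7 and 3.90 CPM and CecA1 at 6.38, 6.55 and 0.975 CPM. AttB followed the pattern but did not pass, at 655, 112 and 22.2 CPM with Tasmania males, 732, 172 and 85.2 CPM with Zimbabwe males and 6.55 to 36.5 CPM (median 20.5) in the others (adjusted p = 0.0550). Dro was at 548, 105 and 18.1 CPM, at 679, 160 and 37.0 CPM and at 6.67 to 114 CPM (median 21.8; adjusted p = 0.617), and Dpt at 416, 154 and 49.5, at 671, 165 and 56.7 and at 9.38 to 386 CPM (median 70.4; adjusted p = 1). AttD had 0 counts in both crosses. Of 13 Toll-linked peptide genes Def, which encodes defensin, was called with these 4 (adjusted p = 5.39e-06), and of 11 immune-induced genes edin (0.00149); no gene of the Imd receptor, core and negative regulator, Toll pathway or cell type lists was.

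The call in Tasmania females rested on few libraries. Without Tasmania x Zimbabwe replicate 1, 3 of the genes were called, and AttA had an adjusted p of 0.173; without Tasmania x Tasmania replicate 1 it was 0.0892 for AttA, and again 3 genes were called. Leaving out replicate 1 or replicate 2 of every group left no member called, when 0 genes in all were called without replicate 1. Over all alternatives the adjusted p of CecC ranged from 1.03e-05 to 1 and that of AttA from 0.00117 to 1. Summed fat body markers were 26807 to 37739 CPM in Tasmania x Tasmania, 24183 to 39933 in Tasmania x Zimbabwe and 20067 to 49198 CPM in the others, and midgut markers 4643 to 6156, 3515 to 8876 and 3723 to 7323 CPM. Hemocyte markers were 488 to 545, 423 to 632 and 382 to 533 CPM, and testis markers 8.26 to 9.27, 4.42 to 8.81 and 5.37 to 9.42 CPM.

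**Figure D4:**
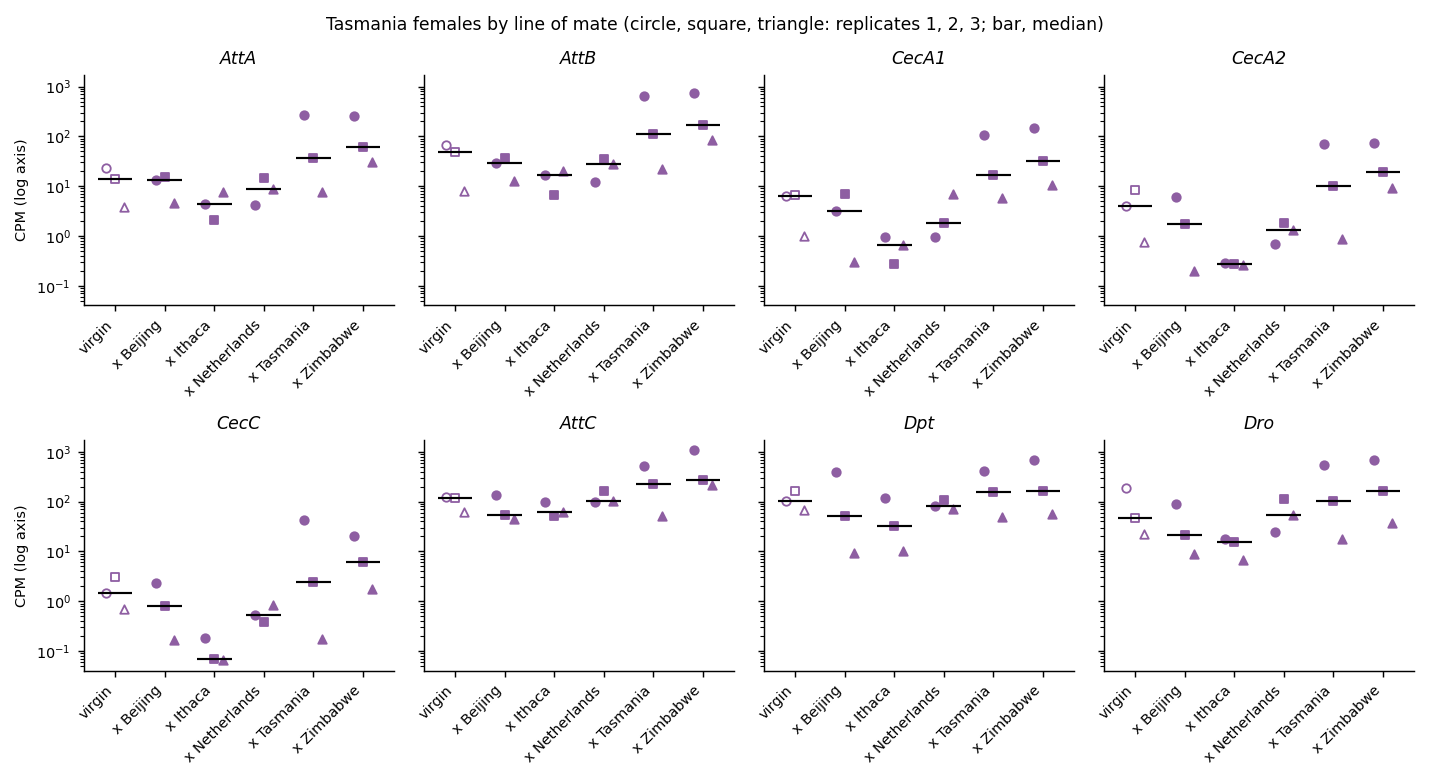
Level of 8 of the genes in Tasmania females as CPM on a log axis, as virgins and by line of the mate; circles, squares and triangles are replicates 1, 2 and 3 and bars the median. The libraries mated to Tasmania and Zimbabwe males hold the highest values, and those with the highest level are replicate 1.

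In Beijing females no member was called for the line of the male (0.0415% of all genes were). All 10 had an unadjusted p below 0.05, against 491 of the 12045 tested genes. DESeq2 called AttC (adjusted p = 0.0419) and 0.219% of the genes it tested. The values turned on 1 library. In Beijing x Ithaca, AttC was at 1606, 53.0 and 148 CPM, Dpt at 1577, 10.03 and 84.96 CPM and Dro at 1291, 26.6 and 90.0 CPM in replicates 1 to 3. The other 12 mated Beijing libraries had at most 304 CPM of AttC, 227 of Dpt and 180 of Dro. Replicate 1 thus stood above every other Beijing library for all 3 genes, and without it the adjusted p of AttC went from 0.354 to 0.750. Its fat body marker sum was 28700 CPM, against 33666 and 22571 CPM in replicates 2 and 3, and its midgut sum 3768 against 7447 and 7238 CPM. Hemocyte sums were 579, 354 and 568 CPM.

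In Ithaca, Netherlands and Zimbabwe females no member was called for the line of the male, where 7.99%, 11.2% and 0% of all genes were. At an unadjusted p below 0.05 there were 5, 2 and 0 members, against 1681, 2812 and 135 of the 12045 tested genes. DESeq2 called 1 member, Dro in Ithaca females (adjusted p = 0.0428), and 2.96% of the genes it tested there. In Ithaca females Dro was at 176, 2.49 and 163 CPM after mating to Netherlands males and at 3.20, 6.83 and 9.01 CPM after mating to Beijing males (adjusted p = 0.0706 over the 5 males, edgeR). AttA was at 223, 2.92 and 85.1 CPM with Netherlands males, and at 120, 19.6 and 8.91 CPM with Ithaca males. The replicates of 1 cross thus differed more than 10-fold. In Zimbabwe females the mated libraries stayed within 3.33 to 30.4 CPM for AttA whatever the male. Averaged over female lines no member was called for the line of the male (0.0083% of all genes were), and DESeq2 called none. No member had an unadjusted p below 0.05 there, against 1519 of the 12045 tested genes. In same-line against different-line crosses none was called (0% of all genes) and DESeq2 called none. None had an unadjusted p below 0.05, against 74 of the 12045 tested genes. The median of the 8 fitted changes was 0.42 against -0.0024 over all genes.

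The difference between female lines in the effect of the male, the interaction, was called for 8 of the 10 genes, against 3.53% of all tested genes (425 genes). The adjusted p was 0.00449 for CecA1 and CecA2, 0.00556 for AttA, 0.00797 for CecC, 0.0121 for AttB, 0.0203 for Dro, 0.0248 for AttC and 0.0400 for DptB; Dpt had 0.360 and AttD 0.627 (edgeR). High libraries stood in Tasmania females with Tasmania and Zimbabwe males, in Beijing females with Ithaca males and in Ithaca females with Netherlands males. AttA, CecA1, CecA2 and CecC were still called with any 1 of Tasmania x Tasmania replicate 1, Tasmania x Zimbabwe replicate 1, Beijing x Ithaca replicate 1 or Ithaca x Netherlands replicate 1 left out. Without replicate 1 of every group, or without replicate 2, no member was called, and the count over all genes went from 425 to 1 without replicate 1. In the same comparison 11 of 24 testis genes were called, and the testis sum ranged from 4.09 to 1644 CPM over the libraries. It was 6.80 CPM in Beijing x Ithaca replicate 1 and 8.38 CPM in Tasmania x Tasmania replicate 1. In Tasmania x Zimbabwe replicate 1 it was 4.42 CPM and in Ithaca x Netherlands replicate 1 20.8 CPM. The part of testis RNA in the calls of the peptide genes was not tested. Without the 7 libraries above 10 CPM, 2 members, CecA2 and CecC, were called, and 16 genes in all (0.148% of those tested) instead of 425. Without 4 libraries with RNA of another line 2 members were called, AttA and CecA2, and again 16 genes in all (0.138%). Def, IM1 and IM23 of the 13 Toll-linked peptide genes and edin of the 11 immune-induced genes were called too, and none of the Imd receptor, core and negative regulator, Toll pathway, fat body, hemocyte and midgut lists was.

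Spread between libraries of 1 group was large for all 10 genes. The fitted coefficient of variation between replicates, counting error set aside, was 81.7% for AttD, 84.3% for AttA, 85.6% for AttC, 86.4% for CecC, 88.3% for DptB, 89.3% for AttB, 93.4% for Dro, 104% for CecA2, 106% for CecA1 and 114% for Dpt. The median over all tested genes was 21.3%. Between 88.3% and 90.6% of tested genes were less variable than the gene in question. The SD of a library's deviation from its group mean was lowest for AttD (1.05 on the log2 scale) and highest for Dpt (2.15).

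The 10 genes deviated together. A library's mean deviation over the genes ran from -2.94 to 2.83 on the log2 scale, and in 12 libraries all 10 genes stood above the group mean, in 16 none did. The highest mean deviations were those of Beijing x Ithaca replicate 1 (2.83), Tasmania x Tasmania replicate 1 (2.19) and Ithaca virgin replicate 3 (2.16). In the last of these, a virgin library, AttA was at 66.9 CPM against 5.23 and 16.9 in its group, and its midgut marker sum was 19222 CPM, near the top of the range over all libraries. The lowest library, Ithaca x Netherlands replicate 2 (-2.94), had a midgut sum of 19469 CPM. The part of these markers in the deviations was not tested. Of 9 libraries at least 1.5 above their group 8 were of mated females, who make up 74 of the 89 libraries. Over the 45 pairs of genes, the Spearman correlation of the deviations over 89 libraries was 0.388 (AttD and CecA1) to 0.935 with a median of 0.690, and 42 pairs were above 0.5. These points share library and depth, and the values are a description.

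**Figure D5:**
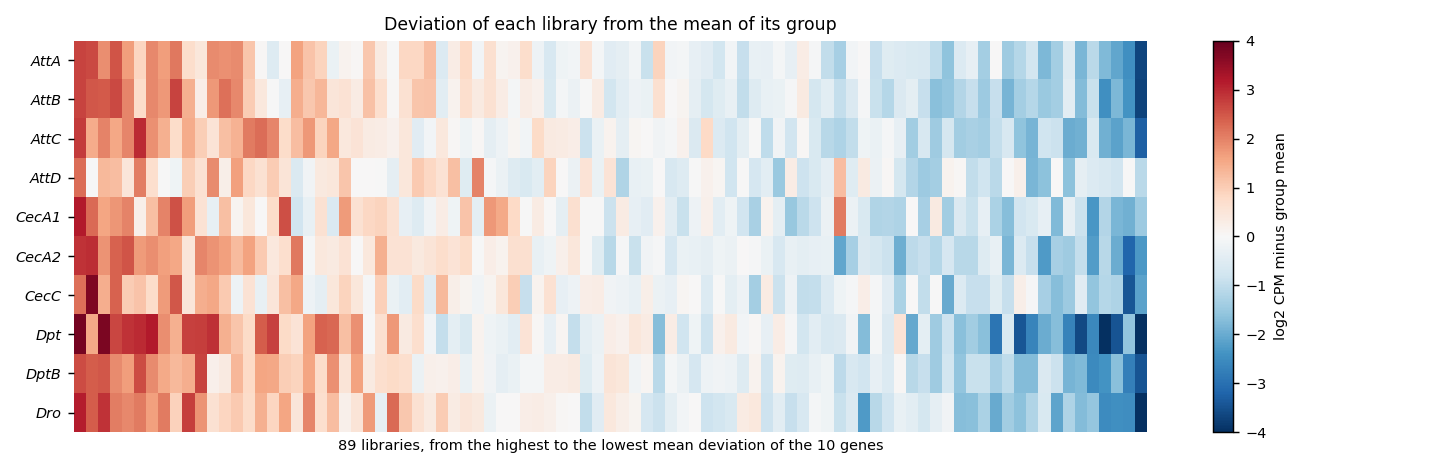
Deviation of each library's log2 CPM from its group mean, with the 10 genes in rows and the 89 libraries in columns from the highest to the lowest mean deviation (2.83 to -2.94); red is above and blue below the group mean. The genes change colour together from left to right, least so for AttD.

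Other genes with the most similar deviations were, by Spearman correlation with the mean of the 10 genes over 89 libraries, Mtk (0.871), PGRP-SB1 (0.835), CG43236 (0.832), CecB (0.819), PGRP-SD (0.814), edin (0.811), CR43920 (0.672) and spirit (0.618). PGRP-SB1 encodes an amidase, PGRP-SD a recognition protein, CecB a cecropin and edin an immune-induced secreted peptide. Of 12035 tested genes outside the set 30 were above 0.5 and 6 above 0.8. In the libraries Mtk ranged from 0.369 to 678 CPM (median 28.7), PGRP-SB1 from 5.82 to 334 (median 41.4) and edin from 0 to 351 CPM (median 0.514).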

How the data were processed

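Whole-female RNA was read in single-end runs (100 bases), per the labels' protocols. The submitters' processing notes name the tools FastQC, Trimmomatic, TopHat2, HTSeq and the build dm3; versions, annotation and strand setting are not given in the sources used here. The table deposited by the authors holds counts of reads for each gene that were not normalized. They cover 89 of 90 labelled samples; Ithaca x Zimbabwe replicate 2 was not analysed here. Of 14522 gene rows 8 hold a number in place of a symbol (0.122% of all counts) and were left out.

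Genes were filtered with filterByExpr over 30 groups (12045 tested) and scaled by TMM (factors 0.74 to 1.10). The quasi-likelihood fit used every library and 1 coefficient for each group (R 4.3.3, edgeR 4.0.16, limma 3.58.1) and was tested on simulated data, and p-values were adjusted by Benjamini-Hochberg over all tested genes. Standard errors are |log2 change| over the root of the F statistic; no change is given where a group holds 0 counts. DESeq2 1.42.0, its size factors in edgeR, no filter, a replicate block, fits on 1 female line, and leaving out replicates, virgin libraries or libraries with testis RNA were alternatives; leaving out libraries with other-line RNA or 4 single mated libraries was added after seeing the data. Correlations use log2 CPM with a prior count of 2. Library precision was set by replicates (lowest chi-square per degree of freedom 12.2 over 88 replicate pairs), and floors of 3 counts cover counting error only.

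Other-line RNA was estimated from 4 to 17 genes per line whose level in the line is at most 0.05 of that in the source line (at least 3 CPM there). All members were named in each comparison; of the pathway lists (Imd receptors, core and negative regulators, Toll pathway, Toll-linked peptides, immune-induced genes) and cell type markers (fat body, hemocytes, midgut, testis), up to 6 called genes by smallest p; of other genes, the 8 most alike; and the 3 libraries that deviated most. The members and lists were chosen with earlier results of these data known.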

Additional observations from a re-analysis of the deposited data

Results flagged for a closer look

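The effect of the male's line differed between female lines for 8 of the 10 genes, by the edgeR test of that difference. The test compared the 25 crosses (74 libraries) in the fit that used all 89 libraries, and it called 3.53% of all tested genes. The adjusted p was 0.00449 for CecA1, 0.00449 for CecA2, 0.00556 for AttA, 0.00797 for CecC, 0.0121 for AttB, 0.0203 for Dro, 0.0248 for AttC and 0.0400 for DptB. The count fell to 2 without the libraries with testis RNA, to 2 without those with RNA of another line, and to 0 without replicate 1 or without replicate 2. For CecA1 the largest median of a cross in Tasmania females was 31.9 CPM with Zimbabwe males, and the crosses with Beijing, Ithaca and Netherlands males had medians of 3.13, 0.654 and 1.86 CPM. In Zimbabwe females CecA1 was at 0 in 12 of 15 mated libraries whatever the male. For AttA the median of a cross in Ithaca females was 85.1 CPM with Netherlands males (n = 3), 19.6 CPM with Ithaca, 13.4 with Beijing and 9.08 CPM with Tasmania males (n = 3 each) and 10.7 CPM with Zimbabwe males (n = 2).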

How the results depend on the processing

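Of 3417 values of single genes under 33 alternatives, 3319 stayed on their side of the adjusted p threshold, 64 lost a call, 34 gained one and no called value changed sign; 67 changes that were not called changed sign. DESeq2's own test called 3 members for mating averaged over lines and 2 in Netherlands females, where edgeR called 0, and 1 each for the line of the male in Beijing and Ithaca females; among pairs of virgin lines it called 31 against 15. For female line by male line 8 members became 2 without the libraries with testis RNA and 2 without those with RNA of another line, a choice made after seeing the data. The cause of these changes was not tested. The testis and other-line sets of libraries both hold Ithaca x Zimbabwe replicate 1 and Netherlands x Beijing replicate 2.

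Leaving out a replicate number or a library gave 0 to 8 members for female line by male line, 0 to 5 for the male line within Tasmania females and 0 to 2 for mating averaged over lines. It gave 0 to 1 for the male line within Ithaca females and 0 to 1 within Netherlands females, 1 to 8 for female line among virgins, 9 to 10 among mated females, 1 to 14 for pairs of virgin lines and 40 to 51 for pairs of mated lines. It gave 0 members throughout for mating within each line, mating by female line, the male line within Beijing and Zimbabwe females, the male line averaged over female lines, and same-line crosses. Leaving out a replicate number removes 1 library of each group. For pairs of lines only replicate numbers were left out, not single libraries. This gave 1 to 14 calls for pairs of virgin lines and 40 to 51 for pairs of mated lines.

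Over all genes the calls under the alternatives spanned 241 to 866 for mating averaged over lines (678 as reported), 0 to 10 in Beijing (3), 0 to 104 in Ithaca (21), 1 to 92 in Netherlands (15), 2 to 185 in Tasmania (99) and 0 to 70 in Zimbabwe (10). They spanned 1632 to 4053 for female line among virgins (3308), 6539 to 8878 among mated females (8442), 0 to 16 for mating by female line (8) and 1 to 615 for female line by male line (425). For the line of the male they spanned 0 to 26 in Beijing (5), 5 to 1060 in Ithaca (962), 0 to 1391 in Netherlands (1355), 0 to 34 in Tasmania (25), 0 to 4 in Zimbabwe (0) and 0 to 9 averaged over lines (1), and for same-line crosses 0 to 7 (0).

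Replicate numbers were not treated as pairs in the main tests, although libraries with the same number were somewhat alike. Of 1276 pairs of libraries with the same number in different groups, 46.6% had correlated deviations above 0.1 (median 0.0839, against -0.0408 for different numbers). Of 89 libraries 65 matched best a library with their own number. The main tests do not take this likeness into account. With the number as a block, 9 members instead of 6 differed by line among virgins (AttB, adjusted p = 0.0240, AttC, 0.0251, and DptB, 0.0449, were added), AttA was not called for the male line within Tasmania females (0.0599) nor DptB for female line by male line (0.0905), and no other call changed. The search for NF-kB and GATA motifs in promoters was not run. Levels near 1 CPM rest on few counts, which limits CecA1, CecA2, CecC and AttD most.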

Other observations

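The share of one gene copy is given here for the 5 libraries with RNA of another line. Netherlands x Ithaca replicate 2, with 67.9% Ithaca RNA, had the lowest AttB share of the 18 Netherlands libraries, 38.1%, where the line medians were 48.5% in Netherlands and 31.6% in Ithaca. Netherlands x Beijing replicate 2, with 38.0% Beijing RNA, had the highest CecA1 share (55.3%) and the lowest CecA2 share (9.21%) of the Netherlands libraries with at least 10 cecropin counts. Of Beijing libraries, Beijing x Netherlands replicate 2, with 16.4% Zimbabwe RNA, had the highest CecA2 share, 37.5%, against a line median of 13.1%. Ithaca x Zimbabwe replicate 1, with 15.2% Zimbabwe RNA, had the highest CecA2 share (30.7%) and the lowest DptB share (27.8%) of the Ithaca libraries. The Ithaca and Zimbabwe medians were 7.76% and 32.3% for CecA2 and 49.0% and 62.2% for DptB, so its DptB share lay away from the Zimbabwe median. Its AttB share was 31.6%, where the medians were 31.6% in Ithaca and 16.6% in Zimbabwe. Ithaca x Zimbabwe replicate 3, with 24.2% Zimbabwe RNA, was at neither end of its line for any of the 4 shares (AttB 30.1%, CecA1 37.5%, CecA2 20.8%, DptB 59.6%).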
